A study of Mus musculus with 96 samples.

Results

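The cells described here are hematopoietic stem cells of the HSC1 gate in which at least 1 sequencing read was counted for Flt3, although the cells had been sorted as negative for the Flt3 protein. HSC1 cells carry c-Kit, Sca-1 and CD150 on their surface and lack mature lineage markers, CD34, CD48 and Flt3, and they were taken from the bone marrow of C57BL/6 mice that the labels give as 9 to 12 weeks old. The series holds 96 such cells, each in its own library in a plate, and cells 1, 2, 6 and 36, none of which had a Flt3 read, were left out. Of the 92 cells kept, 17 were chosen by a raw Flt3 count above 0 and are called Flt3-counted, and the other 75 had a count of 0 and are called Flt3-negative. None of the sources names the animal behind a cell, so all cells form 1 sample without a replicate, the SD given with a mean is the spread over cells, and no p-value is given. The question was which other genes, and in particular which lymphoid and multipotent progenitor genes, differed in level between the sets.

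Flt3 encodes a receptor tyrosine kinase of class III, the class that also holds Kit, Csf1r and the PDGF receptors. Its ligand, Flt3l, drives the receptor to signal through PI3K, MAP kinase and STAT5. In mouse bone marrow the receptor is absent from the surface of long-term stem cells, appears on multipotent progenitors and is highest on lymphoid-primed multipotent progenitors, from which most lymphoid and many dendritic cells descend. Absence of surface Flt3 is therefore one of the criteria by which stem cells are sorted.

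Flt3 reads were found in 18.5% of the kept cells (17 of 92, exact Clopper-Pearson 95% interval 11.1% to 27.9%). The gene lies on the minus strand of chromosome 5 at 147330741 to 147400489 (GENCODE M21, GRCm38, ENSMUSG00000042817). An antisense gene on the plus strand, Gm26597, shares 936 bases with it and is not a row of the count table. Reads of the pair in these bases cannot be told apart in the counts. The strand setting of the counting is not given in the sources used here. The 17 cells held 2061 Flt3 reads together (exact Poisson interval 1973 to 2152), and the 3 highest cells held 49.3% of them. Just inside the threshold stood cell 70 with 1 read and cells 19 and 47 with 2 reads each, and just outside it stood the 75 cells with 0 reads. The next cells were cell 85 with 27 reads, cell 80 with 30 and cell 94 with 41. Cells 87 and 38 had the most, with 367 and 447 reads. No cell thus lay between 2 and 27 reads, and 14 cells had at least 10 reads, 11 at least 50 and 7 at least 100. After division by each cell's size factor, the normalized Flt3 count of the counted cells ran from 0.765 over a median of 68.4 to 452. Intervals cover counting error only, because reads without molecular identifiers are not independent molecules.

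**Figure D1:**
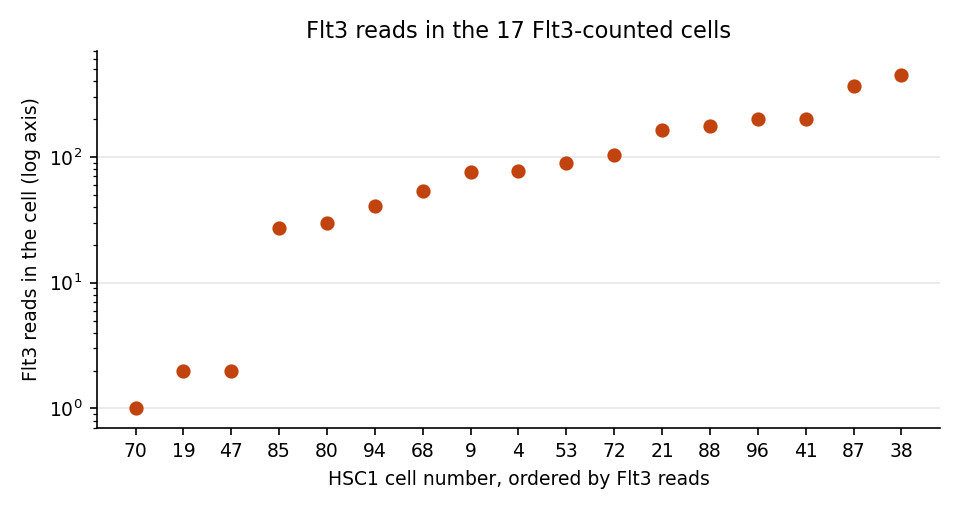
Flt3 reads (vertical axis, log scale) in each of the 17 Flt3-counted cells, ordered by read number along the horizontal axis. Cells 70, 19 and 47 sit at 1 or 2 reads, and the other 14 cells lie between 27 and 447 reads.

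The sets differed in depth. Flt3-counted cells had 739093 to 3242057 gene counts with a median of 2116716, and Flt3-negative cells had 932558 to 3473151 with a median of 1589576. Detected genes had medians of 6780 and 6573, and ERCC spike-in reads took a median of 1.11% and 1.17%. When every cell was thinned to 700000 gene counts, 15 of the 17 cells kept a Flt3 read, and the medians of detected genes were 6203 and 6189. Shares of cells are therefore given below with their value after thinning. Markers of mature B and T lymphocytes were sparse in both sets, with 0.294 ± 0.588 of 9 genes counted per Flt3-counted cell (SD) and 0.107 ± 0.311 per Flt3-negative cell. Their summed normalized count ran from 0 to 419 and from 0 to 650, and the defining genes Cd22 and Cd3e had 0 reads in all 92 cells.

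Genes of the sorting gate other than Flt3 were read first. Kit, which encodes the c-Kit receptor for stem cell factor, was counted in 17 of 17 and 74 of 75 cells. Ly6a, which encodes Sca-1, was counted in 16 of 17 and 69 of 75 cells. Cd48, whose protein is absent from cells of the gate, had 0 reads in all 92 cells, which allows a share of cells of up to 3.26%. The mean normalized counts of Kit were 360 ± 246 in Flt3-counted and 396 ± 296 in Flt3-negative cells, and those of Ly6a were 641 ± 597 and 912 ± 994. Both genes therefore differed by less than the spread over cells.

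Cd34, which encodes a sialomucin that is absent from the surface of HSC1 cells and present on multipotent progenitors, was the gate gene with the largest difference. Normalized counts ran from 0 over a median of 212 to 714 in Flt3-counted cells and from 0 over a median of 0.990 to 676 in Flt3-negative cells. Nearly the whole range was shared, and 14 of the 17 Flt3-counted cells lay above the median of the Flt3-negative cells. The means were 239 ± 214 and 101 ± 147, a log2 ratio of 1.17. Here and below a log2 ratio is that of the mean normalized counts, each with 10 added, Flt3-counted over Flt3-negative. Cd34 was counted in 82.4% of Flt3-counted cells (interval 56.6% to 96.2%) and 52% of Flt3-negative cells (40.2% to 63.7%), and in 82.4% and 48% after thinning. Without cell 96, which had the highest Cd34, the log2 ratio was 0.98.

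Slamf1, which encodes the CD150 on which the cells were gated as positive, stood the other way. In normalized counts it ran from 0 over a median of 0 to 569 in Flt3-counted cells and from 0 over a median of 142 to 1091 in Flt3-negative cells. The lowest cells of both sets lay at 0, and 12 of the 17 Flt3-counted cells were below the median of the others. The log2 ratio of -0.68 was short of a 2-fold difference, or -1.02 without cell 85, and the shares of cells were 47.1% (23% to 72.2%) and 66.7% (54.8% to 77.1%), or 47.1% and 58.7% after thinning. The ratio was -1.01 from 10 Flt3 reads and -1.39 from 50. With ERCC size factors it was -0.57, and among cells with more detected genes than the median -0.39. Mean Slamf1 was 251 ± 242 in the 3 cells with 1 or 2 Flt3 reads and 97.3 ± 172 in the other 14, beside 206 ± 262 in Flt3-negative cells.

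**Figure D2:**
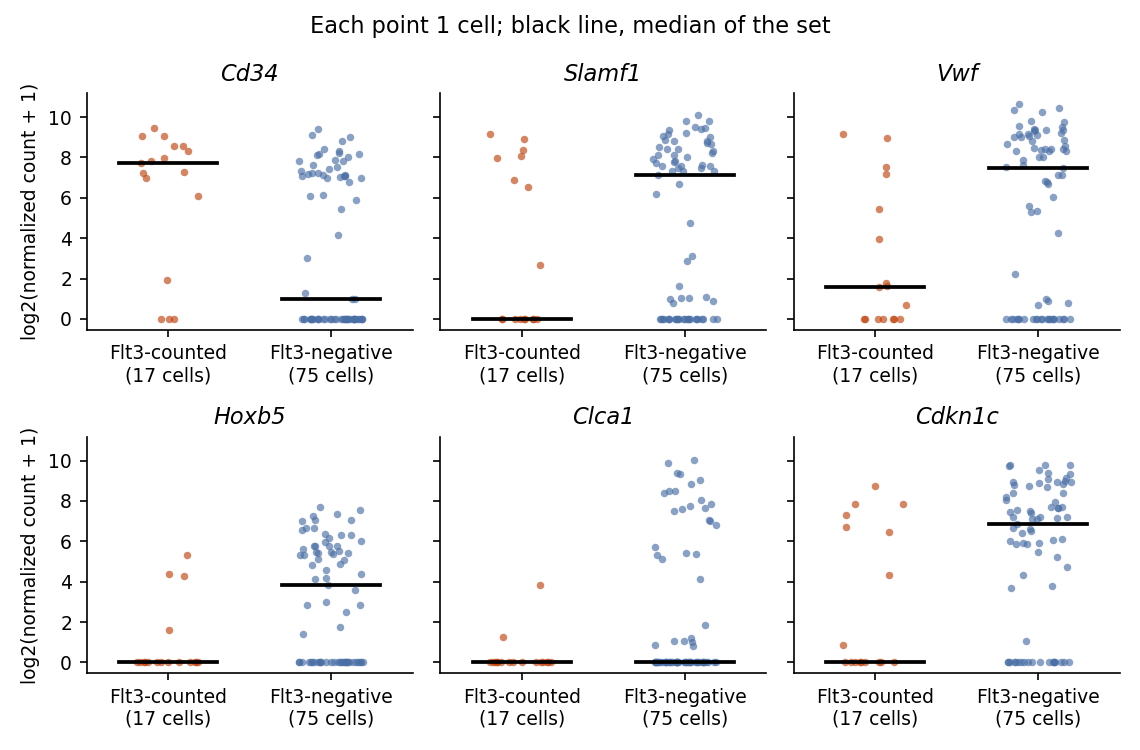
Log2(normalized count + 1) of 6 genes in each cell (1 point a cell), with the 17 Flt3-counted cells on the left and the 75 Flt3-negative cells on the right of each panel. The black line is the median of the set. The median of Cd34 is 212 normalized counts on the left and 0.990 on the right, while those of Slamf1, Vwf, Hoxb5 and Cdkn1c are higher on the right.

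Across the transcriptome, 12250 genes other than Flt3 were counted in at least 10 of the 92 cells and compared. The mean of 261 genes (2.13%) was at least 2-fold higher in Flt3-counted cells, and that of 736 genes (6.01%) at least 2-fold lower. Which direction held more genes depended on the measure. Of the genes past 2-fold, 26.2% were higher by the ratio of means and 61.1% by the difference of mean log2 values, by which 1259 genes (10.3%) were higher and 803 (6.56%) lower by at least 1. The share of cells with a count was at least 25 percentage points higher for 285 genes (2.33%) and at least 25 points lower for 139 (1.13%), and after thinning for 263 and 137. The median log2 ratio of all compared genes was -0.03. With ERCC size factors it was 0.13, and 680 genes (5.55%) were higher and 510 (4.16%) lower. With the size factors used elsewhere, 49 genes (0.4%) were higher and 52 (0.42%) lower by both the ratio of means and the share of cells. For these the share was at least 25 points apart before and after thinning.

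Of 35 genes known to mark long-term stem cells, all of which were counted in at least 10 cells, 6 were at least 2-fold lower in Flt3-counted cells (17.1%, beside 6.01% of all compared genes) and 0 were 2-fold higher. The log2 ratio was below 0 for 27 and above 0 for 8 of them, and their median was -0.47, beside -0.03 for all genes. By mean log2 difference 11 were lower (31.4% beside 6.56%) and 1 was higher, and with ERCC size factors 5 were lower (14.3% beside 4.16%) and 1 higher. The 6 genes were Clca1, Vwf, Hoxb5, Cdkn1c, Ctnnal1 and Tcf15. Of these, Tcf15 passed 2-fold by least, at -1.06, and was under 2-fold when any 1 of 5 Flt3-negative cells was left out, for example -0.95 without cell 63. With ERCC size factors the median of the list was -0.18 beside 0.13 for all genes, and among cells with more detected genes than the median it was -0.10.

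Clca1 had the largest difference of the list. The symbol appears in the table beside Clca3 and is an older name of Clca3a1 in RefSeq, a member of the chloride channel accessory family with close paralogs, so its reads may be shared with them and no position is given. Its normalized count ran from 0 over a median of 0 to 13.2 in Flt3-counted cells and from 0 over a median of 0 to 1057 in Flt3-negative cells. Only 2 Flt3-counted cells had any read, and both stood low in the range of the other set. The log2 ratio was -3.30. The shares of cells were 11.8% (1.46% to 36.4%) and 41.3% (30.1% to 53.3%), or 11.8% and 36% after thinning, and the sets held 30 and 6153 reads (exact Poisson intervals 20.2 to 42.8 and 6000 to 6309).

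Hoxb5 is a homeobox factor known to mark long-term repopulating cells and lies on chromosome 11 at 96303336 to 96306121. Normalized counts ran from 0 over a median of 0 to 39 in Flt3-counted cells and from 0 over a median of 13.2 to 209 in Flt3-negative cells. Of the Flt3-counted cells, 14 were below the median of the others. The means of 4.68 ± 10.9 and 35.8 ± 49.2 gave a log2 ratio of -1.64, and the shares of cells were 23.5% (6.81% to 49.9%) and 60% (48% to 71.1%). After thinning these were 23.5% and 58.7%.

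Cdkn1c encodes the cyclin-dependent kinase inhibitor p57, known to hold stem cells in quiescence, and was singled out after its values were seen. In normalized counts it ran from 0 over a median of 0 to 430 in Flt3-counted cells and from 0 over a median of 116 to 876 in Flt3-negative cells. By the means, the log2 ratio was -1.39, and the gene was counted in 8 of 17 and 56 of 75 cells. Ctnnal1, which encodes alpha-catulin, had a log2 ratio of -1.23. Members with the highest means differed little. Ifitm1, an interferon-induced membrane protein, had means of 2815 ± 1299 and 3748 ± 2089 and a log2 ratio of -0.41, and Gpr56, an adhesion receptor, had a log2 ratio of -0.04. Procr, which encodes the EPCR of the stem cell surface, was looked up because of its use in sorting and had means of 463 ± 382 and 449 ± 399.

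Vwf, which encodes von Willebrand factor and marks platelet-biased stem cells, divided the Flt3-counted cells themselves. Its normalized count ran from 0 over a median of 2 to 575 in the 17 cells and from 0 over a median of 175 to 1593 in the 75 Flt3-negative cells. The highest values among Flt3-counted cells were 575 in cell 19 and 500 in cell 70, which are cells with 1 or 2 Flt3 reads. The third such cell, cell 47, had 41.9. In the 14 cells with at least 10 Flt3 reads, Vwf ran from 0 over a median of 0.314 to 183, with a mean of 24.9 ± 59.5 beside 299 ± 366 in the Flt3-negative cells. Accordingly, the log2 ratio was -1.68 over all 17 cells and -3.14 over those 14. Cd34 did not divide them in this way, with log2 ratios of 1.17 and 1.27. The share of cells with any Vwf read was 58.8% (32.9% to 81.6%) in the Flt3-counted and 70.7% (59% to 80.6%) in the Flt3-negative set, or 58.8% and 68% after thinning. Of the 14 cells with at least 10 Flt3 reads, 7 had a Vwf read, beside 53 of 75 Flt3-negative cells. Some cells of both sets were counted at low values, for example 0.629 in Flt3-counted cell 9 and 0.614 in Flt3-negative cell 92. By any read the shares of the 2 sets thus differed little beside the level, but they include such low counts.

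Multipotent and lymphoid-primed progenitor genes were examined as the list closest to the known place of Flt3. Of 34 genes, 26 were counted in at least 10 cells, of which 1 was at least 2-fold higher (3.85%, beside 2.13% of all compared genes) and 2 were at least 2-fold lower (7.69%, beside 6.01%). By mean log2 difference 7 were higher (26.9% beside 10.3%) and 0 lower, and with ERCC size factors 5 were higher (19.2% beside 5.55%) and 2 lower (7.69% beside 4.16%). The log2 ratio was above 0 for 19 of the 26 genes, with a median of 0.33 beside -0.03 for all genes, or 0.19 without cell 96. The gene at least 2-fold higher was Cd34. Below it came Ramp1, a receptor activity-modifying protein, at 0.92, Myc, a growth-promoting transcription factor, at 0.84, and Ptprc, the pan-leukocyte phosphatase CD45, at 0.77. The last 3 genes were named after their values were seen, and the Myc ratio was 0.11 without cell 9, which had the highest value.

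The genes at least 2-fold lower were Plac8 and Satb1, and 5 more of the 26 had a log2 ratio below 0. Plac8 is known for its expression in early lymphoid and myeloid progenitors and had 2 reads in Flt3-counted and 1770 reads in Flt3-negative cells, where it was counted in 2 of 17 and 11 of 75 cells. Satb1, a chromatin organizer that promotes lymphoid fate, was counted in 1 of 17 and 10 of 75 cells. Their log2 ratios were -1.84 and -1.30. Several classical genes of this compartment could not be compared. Cd48, Tespa1 and Dntt, the lymphoid DNA polymerase TdT, had 0 reads in all 92 cells. Ccr9, a chemokine receptor, was counted in 0 of 17 and 1 of 75 cells. Highly expressed members such as Coro1a, an actin-binding coronin, and Lcp1, which encodes L-plastin, had log2 ratios of 0.07 and 0.50.

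The early lymphoid list held 43 genes, of which 19 were counted in at least 10 cells. At least 2-fold higher were Lax1 and Cd72 and at least 2-fold lower Ets1 and Satb1 (each direction 10.5% of the 19 genes, beside 2.13% higher and 6.01% lower of all genes). The median log2 ratio was -0.42 beside -0.03 for all genes, and 12 of the 19 were below 0. The mean log2 difference put 3 higher and 3 lower (each 15.8%, beside 10.3% and 6.56%). Of the 43 genes, 34 had a count in at least 1 cell and 9 had none. Those at 0 reads in all 92 cells were Il7r, Rag2, Dntt, Igll1, Ly6d, Ccr7, Bst1, Id3 and Cd7. Rag1 was counted in 1 Flt3-negative cell, while Cd79b, given below, was counted in many cells of both sets. Ighm, the immunoglobulin mu heavy chain gene, was counted in 1 of 17 and 3 of 75 cells.

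Lax1 encodes a transmembrane adaptor of lymphocytes that dampens antigen receptor signalling and lies on chromosome 1 at 133679091 to 133690108. Normalized counts ran from 0 over a median of 35.6 to 437 in Flt3-counted cells and from 0 over a median of 0 to 285 in Flt3-negative cells. It was counted in 58.8% (32.9% to 81.6%) and 36% (25.2% to 47.9%) of cells, or 58.8% and 32% after thinning. By the means, the log2 ratio was 1.29, or 0.97 without cell 87. Cd72, an inhibitory co-receptor of B cells, had a log2 ratio of 1.06 and was under 2-fold when any 1 of 6 Flt3-counted cells was left out, with the lowest ratio, 0.83, without cell 96. It was likewise named after its values were seen.

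Ets1, a transcription factor of lymphoid differentiation, had 6 reads in 1 Flt3-counted cell and 1613 reads in 23 Flt3-negative cells. The shares of cells were 5.88% (0.149% to 28.7%) and 30.7% (20.5% to 42.4%), or 5.88% and 29.3% after thinning, and the log2 ratio was -1.78. Among members with high means, Tspan13, a tetraspanin, had a log2 ratio of 0.05 and Ltb, which encodes lymphotoxin beta, one of -0.61. Cd79b, which encodes the signalling chain Ig-beta of the B cell receptor and was singled out after its values were seen, was counted in 47.1% and 73.3% of cells, or 35.3% and 70.7% after thinning.

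**Figure D3:**
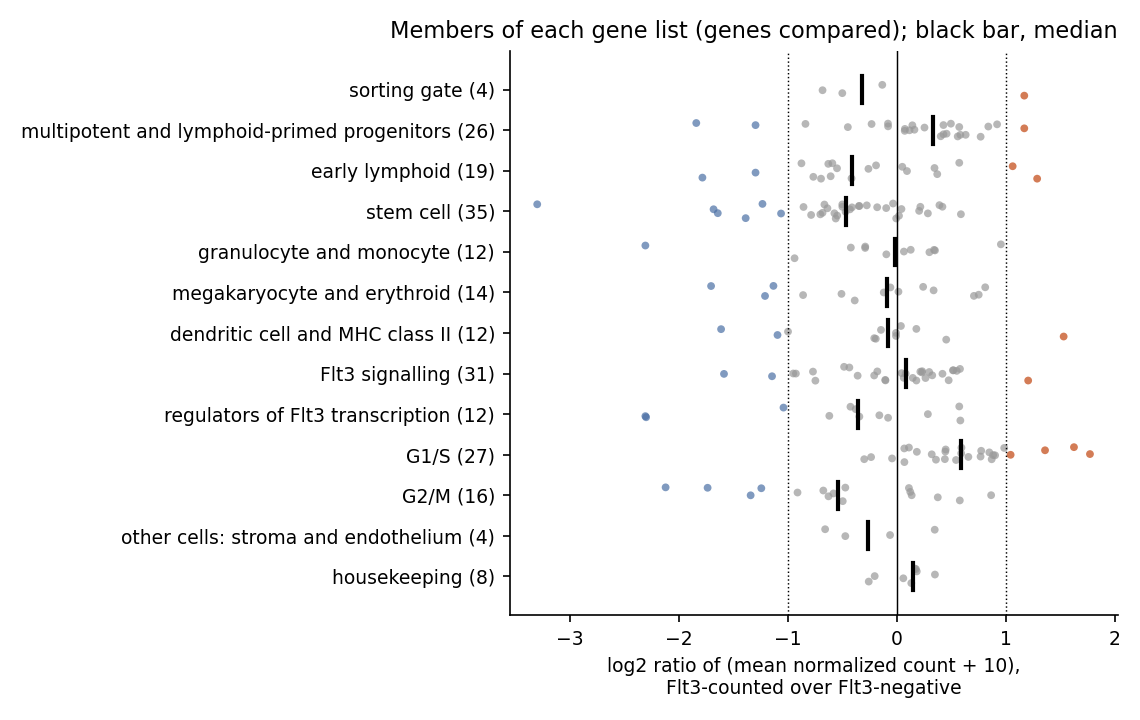
Log2 ratio (horizontal axis) of each compared member of 13 gene lists, with the number of genes compared in parentheses. Red points are at least 2-fold higher in Flt3-counted cells, blue points at least 2-fold lower, and the black bar is the median. The medians of the stem cell and early lymphoid lists lie at -0.47 and -0.42, and those of the progenitor and G1/S lists at 0.33 and 0.59.

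Granulocyte and monocyte genes were compared because Flt3 is also known in myeloid progenitors. Of 23 genes, 12 were compared and 1 was at least 2-fold lower (8.33% beside 6.01% of all genes), and the median log2 ratio was -0.02. Mpo, Elane, Ctsg, Ly6c2, Hp and Clec12a had 0 reads in all 92 cells. Lyz2, which encodes lysozyme and has the close paralog Lyz1, was counted in every cell, with means of 969 ± 501 and 1037 ± 579, and Prtn3, which encodes proteinase 3, had a log2 ratio of -0.42. Irf8, a factor of monocyte and dendritic cell fate, was counted in 3 of 17 and 8 of 75 cells with a log2 ratio of 0.95.

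The 2-fold lower gene was Gfi1, a zinc finger repressor of stem cells and granulocytes that is also among the factors known to act on Flt3 transcription. It was counted in 17 of 75 Flt3-negative cells (22.7%, 13.8% to 33.8%) and in 0 of 17 Flt3-counted cells, which allows a share of cells of up to 17.6% by the limit of 3 cells of 17, while the exact interval drawn in the plot of shares reaches 19.5%. Its mean was 39.5 ± 183 in Flt3-negative cells, and its log2 ratio was -2.31. Cell 63 alone held 50.3% of its normalized counts, and without that cell the log2 ratio was -1.58.

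Megakaryocyte and erythroid genes had a median log2 ratio of -0.09 over 14 compared genes of 24, with 3 genes at least 2-fold lower (21.4% beside 6.01% of all genes) and 0 higher. By mean log2 difference 2 were higher (14.3% beside 10.3%) and 0 lower, and without cells 49, 53, 66 and 78, described with the cell cycle genes, 3 were higher and 2 lower by the ratio of means. The median was -0.28 without cell 21. The 3 lower genes were Pf4, Itgb3 and Epor, and each was under 2-fold without 1 Flt3-negative cell. Pf4, which encodes platelet factor 4, had a log2 ratio of -1.70, or -0.94 without cell 78. It was counted in 47.1% of Flt3-counted and 34.7% of Flt3-negative cells, and by the difference of mean log2 values it was higher in Flt3-counted cells, at 1.01. Itgb3, the integrin beta 3 subunit, and Epor, the erythropoietin receptor, had ratios of -1.21 and -1.13, or -0.98 and -0.75 without cell 18, and Epor had -1.87 without the Flt3-counted cell 53. Car2, carbonic anhydrase 2, and Nfe2, a platelet and erythroid transcription factor, were counted in every cell with ratios of -0.51 and -0.12.

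Dendritic cell and MHC class II genes had a median log2 ratio of -0.08 over 12 compared genes of 17, with 1 higher (8.33% beside 2.13% of all genes) and 2 lower (16.7% beside 6.01%). Zbtb46, a transcription factor of conventional dendritic cells, was 2-fold higher at 1.53, but was counted in only 3 of 17 and 9 of 75 cells, and its ratio was 0.29 without cell 47. At least 2-fold lower were Id2, an inhibitor of E proteins, at -1.61 and H2-Eb1, the beta chain of the class II molecule I-E, at -1.09. Id2 was at -2.23 without cell 38, and H2-Eb1 was under 2-fold without cell 63, 69 or 95, at -0.95, -0.97 and -0.95. Cd74, the invariant chain of class II molecules, had means of 165 ± 283 and 340 ± 617 and medians of 57.9 and 56.1. The medians therefore hardly differed, and the highest cells stood at 908 and 3571. Cst3, which encodes cystatin C, had a log2 ratio of -0.19.

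The known pathway of the receptor was compared member by member. Of 32 genes, 31 were compared, with 1 at least 2-fold higher (3.23% beside 2.13% of all genes) and 2 at least 2-fold lower (6.45% beside 6.01%), and a median log2 ratio of 0.08, or -0.03 without cell 9. Without cell 38 there were 0 higher and 4 lower. By mean log2 difference 7 were higher (22.6% beside 10.3%) and 3 lower (9.68% beside 6.56%). The gene of the ligand, Flt3l, was counted in 7 of 17 and 28 of 75 cells with a log2 ratio of -0.10. Pik3r1, the regulatory subunit of PI3K, was counted in all 92 cells. Its normalized count had medians of 197 and 557 and highest values of 1271 and 3543, and 12 of the 17 Flt3-counted cells were below the median of the others, with a log2 ratio of -1.15. Socs2, a suppressor of cytokine signalling that binds the activated receptor, had means of 76.8 ± 87.4 and 250 ± 355, medians of 39.2 and 138 and a log2 ratio of -1.59. Ptpn6, the phosphatase SHP-1, had a ratio of 0.23. Of the other receptors of the class, Kit was compared above and Pdgfra had 0 reads.

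Among 14 transcription factors known to act on Flt3, 12 were compared, of which 3 were at least 2-fold lower (25% beside 6.01% of all genes) and 0 higher. The median log2 ratio was -0.36, or -0.56 without cell 38, and 9 of the 12 were below 0. The mean log2 difference put 4 lower (33.3% beside 6.56%) and 2 higher (16.7% beside 10.3%). The score of the list in a cell, the mean over members of log2(normalized count + 1), had a median of 4.63 in Flt3-counted and 5.04 in Flt3-negative cells, and 13 of the 17 Flt3-counted cells lay below the latter. The difference of mean scores was -0.35, and ran from -0.42 to -0.15 over the alternatives. The genes at least 2-fold lower included Gfi1 and Pbx3. The homeobox partner Pbx3 had 2 reads in Flt3-counted and 3044 reads in Flt3-negative cells, where it was counted in 2 of 17 and 12 of 75 cells, and its log2 ratio was -2.30. The activators Meis1 and Lmo2 were counted in every cell with ratios of 0.28 and -0.16. Sfpi1, which encodes PU.1, and Ikzf1, which encodes Ikaros, had ratios of 0.58 and 0.57, and with Meis1 they were the 3 members above 0. Runx1 and Myb, factors of blood stem and progenitor cells, had ratios of -0.38 and -0.43, and these 4 genes were named after their values were seen.

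G1/S genes, which serve DNA replication, had the highest median log2 ratio of the lists, at 0.59 over 27 compared genes of 31. At least 2-fold higher were Uhrf1, Prim1, Mcm5 and Gmnn (14.8% beside 2.13% of all genes), 0 were 2-fold lower, and 24 of the 27 were above 0. Uhrf1, a reader of hemimethylated DNA, had a log2 ratio of 1.77, or 0.54 without cell 53, and Mcm5, a subunit of the replicative helicase, had 1.36, or 0.39 without it and 0.97 without cell 21. Gmnn, which encodes the replication licensing inhibitor geminin and was named after its values were seen, had 1.04, or 0.35 without cell 53 and also under 2-fold without cell 9, 19 or 87. Without cell 53 the median of the list was -0.02, with 1 gene higher and 1 lower. Its G1/S score, computed in the same way, was the highest of the 92 cells, at 8.77, followed by cell 86 at 7.23, cell 21 at 6.82, cell 74 at 6.64 and cell 34 at 6.38, of which only cell 21 was Flt3-counted. A set of 4 cells, 49, 53, 66 and 78, taken from earlier results of these data, held the 4 highest G2/M scores, from 3.48 to 8.62, of which only cell 53 was Flt3-counted. Without these 4 cells the median of the G1/S list was 0.14. Prim1, the small subunit of DNA primase, was 1.62, or 1.25 without the 4 cells. It was counted in 47.1% and 30.7% of cells, or 47.1% and 28% after thinning. Among cells with fewer detected genes than the median, the median of the list was -0.30. Pcna, the sliding clamp, and Mcm6 had ratios of 0.54 and 0.36.

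G2/M genes stood the other way, with a median log2 ratio of -0.54 over 16 compared genes of 33 and 4 genes at least 2-fold lower (25% beside 6.01% of all genes). The median was 0.01 without the same 4 cells, with 1 gene higher and 2 lower. By mean log2 difference it was -0.01, with 1 gene higher and 1 lower (each 6.25%, beside 10.3% and 6.56%). The 4 genes were Cdc20, the activator of the anaphase-promoting complex, at -2.12, the spindle factors Tpx2 and Tacc3 at -1.74 and -1.34, and the kinetochore motor gene Cenpe at -1.24. Cenpe was under 2-fold without cell 28 or 78, at -0.91 and -0.99. Cdc20 was counted in 3 of 17 and 24 of 75 cells. Hmgb2 and Smc4, chromatin proteins with the highest means of the list, had ratios of -0.58 and 0.14.

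Genes with a mean of at least 50 that stayed past 2-fold when any 1 of the 92 cells was left out were next taken from the whole table. There were 9 higher and 162 lower genes among 6061, beside 58 higher and 230 lower before any cell was left out. This rule does not treat the directions alike. The mean over all cells rests mostly on the 75 Flt3-negative cells, and 1 of 17 cells weighs more in its mean than 1 of 75. The excess of lower genes is therefore not read as a result. The 9 were Sco1, Prim1, Polr1e, Exo5, Rrp8, Unk, Gm4759, Glipr1 and Fam136a, with log2 ratios from 1.70 to 1.22. Sco1, a copper chaperone of cytochrome c oxidase, ran from 0 over a median of 56 to 576 in Flt3-counted cells and from 0 over a median of 0 to 477 in Flt3-negative cells. It was counted in 64.7% (38.3% to 85.8%) and 28% (18.2% to 39.6%) of cells, or 58.8% and 25.3% after thinning. Polr1e, a subunit of RNA polymerase I whose symbol RefSeq also lists as a synonym of Polr1c, was counted in 70.6% (44% to 89.7%) and 40% (28.9% to 52%), with the same shares after thinning, and a log2 ratio of 1.42. Rrp8, a ribosomal RNA processing factor, and Exo5, a DNA exonuclease, had ratios of 1.31 and 1.36. Glipr1 was the most widely expressed of the 9, in 94.1% and 82.7% of cells, with medians of 299 and 119, and 14 of the 17 Flt3-counted cells were above the median of the others. Gm4759 is annotated as an unprocessed pseudogene, so its count is uncertain.

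The 10 lowest of the 162 were Clca1, Zfp677, Ncoa7, Hid1, 4930522L14Rik, Mef2a, Zfp938, E2f5, Plk2 and Pdp1, with log2 ratios from -3.30 to -2.35. Hid1 encodes a protein of secretory granule formation and lies on chromosome 11 at 115347707 to 115367756. In normalized counts it ran from 0 over a median of 0 to 155 in Flt3-counted cells and from 0 over a median of 103 to 907 in Flt3-negative cells. All but 1 of the 17 Flt3-counted cells lay below the median of the others. It was counted in 29.4% (10.3% to 56%) and 77.3% (66.2% to 86.2%) of cells, or 17.6% and 69.3% after thinning, and its log2 ratio of -2.86 was -3.50 without cell 87.

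Ncoa7, a nuclear receptor coactivator, was counted in 64.7% and 76% of cells but at different levels, with medians of 1.14 and 125 and highest values of 147 and 932. Its log2 ratio was -3.02, and 16 of the 17 Flt3-counted cells lay below the median of the others. Mef2a, a MADS box transcription factor, was counted in 23.5% (6.81% to 49.9%) and 53.3% (41.4% to 64.9%) of cells, or 17.6% and 52% after thinning, with a log2 ratio of -2.80. E2f5, an E2F factor that represses cell cycle genes, was counted in 2 of 17 and 32 of 75 cells at -2.73. Plk2, a polo-like kinase, had a ratio of -2.53 that was -3.43 without cell 70, and Pdp1, the pyruvate dehydrogenase phosphatase, had one of -2.35 that was -3.01 without cell 53. For 4930522L14Rik the ratio of -2.80 was -2.20 without cell 63. Zfp677 and Zfp938, zinc finger genes of a large family, had ratios of -3.05 and -2.79.

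**Figure D4:**
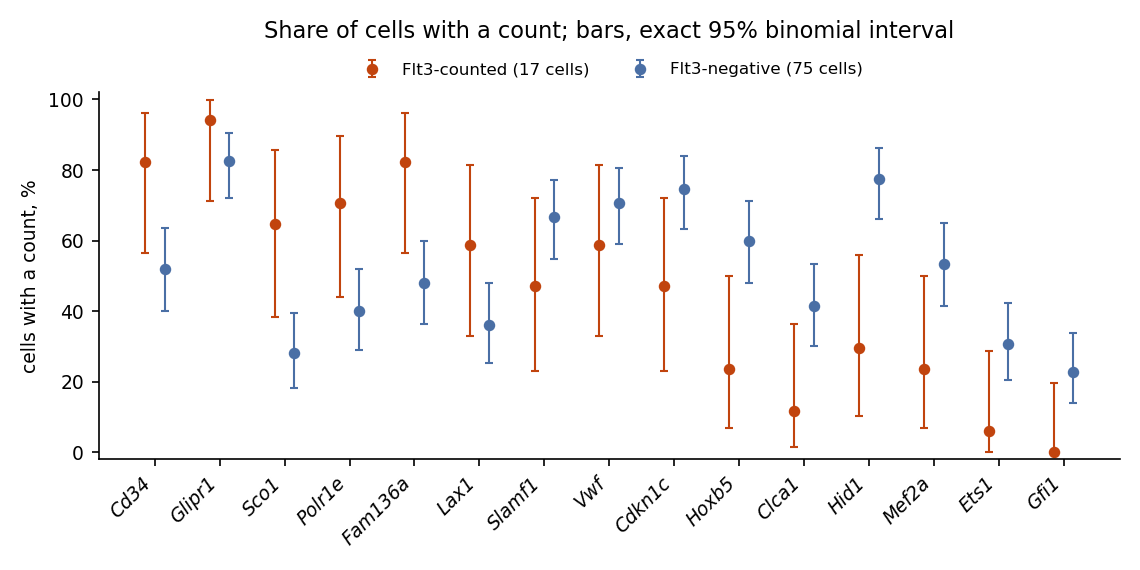
Share of cells with a count (vertical axis, percent) for 15 genes in the 17 Flt3-counted cells (red) and the 75 Flt3-negative cells (blue), with exact 95% binomial intervals that cover counting error only. The shares of Hid1 are 29.4% and 77.3% and those of Cd34 82.4% and 52%, while Gfi1 was counted in 0 of the 17 cells and in 22.7% of the others.

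The lists were also scored in each cell, as the mean over members of log2(normalized count + 1). The stem cell score was 5.75 ± 0.73 in Flt3-counted and 6.38 ± 0.88 in Flt3-negative cells, with ranges of 4.59 to 7.59 and 4.03 to 8.33. The multipotent and lymphoid-primed progenitor score was 4.14 ± 0.45 and 3.63 ± 0.54, with ranges of 3.41 to 4.99 and 1.66 to 4.84. Both differences, -0.63 and 0.50, were smaller than or close to the spread over cells, and the sets overlapped over most of the range. Of the 17 Flt3-counted cells, 14 had a stem cell score below the median of the Flt3-negative cells and 14 a progenitor score above it. The combination of both was found in 12 of 17 Flt3-counted cells (70.6%) and 22 of 75 Flt3-negative cells (29.3%). The single scores already differed in these directions, and the cut-offs were medians of the Flt3-negative cells themselves. Whether the combination went beyond the single scores was not tested. Without the gate gene Cd34 the progenitor scores were 4.07 ± 0.40 and 3.64 ± 0.53. The early lymphoid score was 1.52 ± 0.31 and 1.60 ± 0.35, a difference of -0.09, with 6 of the 17 cells above the median of the others.

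Over the 11 cells with at least 50 Flt3 reads the differences were -1.03 for the stem cell score and 0.68 for the progenitor score. Since the sets differed in depth, both were also computed after thinning to 700000 gene counts with the same sets, and were -0.64 and 0.51. They were computed too among cells above and below the median of detected genes, which is not a measure of depth alone. The stem cell difference was -0.28 among the cells with more detected genes (10 Flt3-counted and 36 Flt3-negative) and -1.01 among those with fewer (7 and 39). The progenitor difference was 0.40 and 0.65. The early lymphoid difference was -0.24 and 0.08, of opposite sign. Housekeeping genes had a median log2 ratio of 0.15 and no member past 2-fold.

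**Figure D5:**
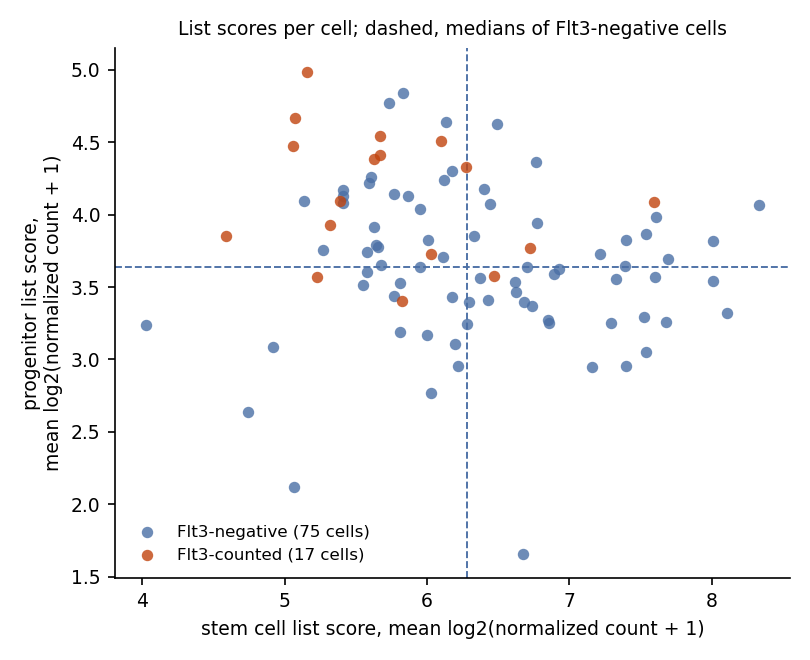
Stem cell list score (horizontal axis) against multipotent and lymphoid-primed progenitor list score (vertical axis), both as mean log2(normalized count + 1), with 1 point a cell. Dashed lines are the medians of the 75 Flt3-negative cells. Of the 17 Flt3-counted cells, 12 lie to the upper left of the crossing lines, beside 22 of the 75 others.

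Other genes known to vary among stem cells were spread widely over the Flt3-counted set and were named after their values were seen. Among the 17 cells, Itga2b, the integrin of megakaryocytes, was counted in 7 and Gata1, the erythroid and megakaryocyte regulator, in 1, cell 53. Fos, an immediate early factor, was at 0 in cell 80 and at 3967 in cell 85. Cd34 was counted without Vwf in 5 of 17 Flt3-counted cells (29.4%, 10.3% to 56%) and in 10 of 75 Flt3-negative cells (13.3%, 6.58% to 23.2%). Cd34 without Hoxb5 was counted in 11 of 17 (64.7%, 38.3% to 85.8%) and 20 of 75 (26.7%, 17.1% to 38.1%). The single shares, 82.4% and 52% for Cd34 and 23.5% and 60% for Hoxb5, already differed in these directions. Whether the combinations went beyond the single shares was not tested. Markers of stroma and endothelium had a median log2 ratio of -0.27 over 4 compared genes of 11, with Lum and Dcn at 0 reads. Their summed normalized count ran from 0 to 1306 in Flt3-counted and from 0 to 1006 in Flt3-negative cells. Among neutrophil and macrophage markers 1 gene of 11 could be compared, S100a9, with a log2 ratio of 0.09, and the summed counts ran from 0 to 701 and from 0 to 345. The part of other cells in the differences was not tested.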

How the data were processed

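Single HSC1 cells were sorted into plate wells and sequenced with a Smart-seq2 protocol. The authors aligned reads with STAR and counted them per gene with HTSeq, and the deposited values are raw counts without normalization or molecular identifiers. Versions, from the notes on processing that the submitters gave, are HTSeq 0.6.1, STAR 2.3.0 and SAMtools 0.1.18, with the build mm10. Rows of 38406 genes and of 92 ERCC controls make up the table. The annotation release and the strand setting are not given in the sources used here.

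Size factors were medians of ratios over the 602 genes counted in all 92 kept cells. Genes counted in at least 10 cells were compared by the log2 ratio of mean normalized counts plus a pseudocount of 10, and 2-fold is a rule of size, not a test. Cells are not replicates, so no test was run. Shares have exact Clopper-Pearson and read sums exact Poisson 95% intervals.

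The members and the gene lists were chosen with earlier results of these data known. The text names Flt3, the gate genes, in each list up to 3 compared members by absolute log2 ratio and up to 2 by mean, and the 10 highest and 10 lowest genes with a mean of at least 50 that stayed past 2-fold without any 1 cell. Other genes were singled out after their values were seen. The rule took 78 genes, of which 72 had an unambiguous position in GENCODE M21. Alternatives were other pseudocounts, measures, size factors, thinning, cell sets, Flt3 thresholds and filters. The steps were tested on simulated data in which only genes with a high mean and a limited spread were changed. The simulation therefore does not cover genes counted in few cells. Scripts ran in Python 3.11.15 and used scipy 1.17.1, numpy 2.4.6, matplotlib 3.10.9 and pandas 2.3.3. PCR, index sort and transplantation data were not analysed here. Some genes that the rule took or the lists hold are not reported here.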

Additional observations from a re-analysis of the deposited data

How the results depend on the processing

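The progenitor and stem cell score differences kept their sign in all alternatives, from 0.33 to 0.68 and from -1.03 to -0.28. The early lymphoid difference ran from -0.24 to 0.08 and was above 0 only among cells with fewer detected genes. The counts of genes past 2-fold moved most. Higher genes numbered 560 with a pseudocount of 1 and 12 with one of 50, 1259 by mean log2 difference, 680 with ERCC size factors, 439 for cells from 50 Flt3 reads, 536 and 787 among cells with more and fewer detected genes, and 173 among genes in at least 20 cells. Lower genes numbered 1472 and 47 with those pseudocounts, 1156 from 50 Flt3 reads and 2280 among cells with fewer detected genes. Why the counts moved was not tested, and some of these alternatives changed the number and the choice of cells together. Leaving out each Flt3-counted cell gave 246 to 287 higher and 769 to 821 lower genes. Of 43 named genes past 2-fold, 39 kept their direction in all alternatives. Named genes were partly chosen for a large ratio, or for staying past 2-fold without any 1 cell, in these same cells. Their direction was therefore partly fixed by the choice. Mcm5 turned to -2.30 and Uhrf1 to -1.78 among cells with fewer detected genes, Zbtb46 to -0.79 among those with more, and Pf4 to 1.01 by mean log2 difference, 0.83 without the 4 cells of highest G2/M score and 0.58 among cells with fewer detected genes. The set of 17 cells leaves wide intervals on each share, and the animals behind the cells are not known.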
